A study of Mus musculus with 8 samples.

Results

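The 5 genes described here, Gabbr1, Gabbr2, Kctd8, Kctd12 and Kctd16, encode the GABA-B receptor and its KCTD partners. They were taken by gene name from the 45706 genes in the count and TPM tables, and all 5 were among the 17495 genes that passed the filter on low counts. Ribosome-associated mRNA was isolated from PV+ interneurons of the primary somatosensory cortex and measured by RNA-seq in 8 samples, 4 from mice given clozapine-N-oxide (CNO) and 4 from mice given vehicle. CNO is the ligand of hM3Dq, an engineered receptor that activates the neurons carrying it, so the comparison asks which mRNAs on the ribosomes of PV+ interneurons differ after 48 h of activation. The mice of both groups were PvalbFlp/+;Neurod6Cre/+ and had received, as newborn pups, an AAV-flox-fdio virus. This virus encodes HA-RPL10a and myc-hM3Dq as one transcript, so vehicle samples also carried hM3Dq and the tagged ribosomal protein. The virus uses the neuronal hSyn promoter, needs the Flp made from the Pvalb locus, and is switched off by the Cre made from the Neurod6 locus in pyramidal cells. CNO was given at 1 mg/kg in 5 injections over 48 h, to mice aged 42 to 70 days. Each sample was pooled from 4 brains, and the labels name no pairing of CNO with vehicle samples.

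GABA-B receptors are G protein-coupled receptors for GABA that mediate slow inhibition. Gabbr1 encodes the subunit that binds GABA, and Gabbr2 the subunit that brings the receptor to the cell surface and couples to Gi and Go proteins. Released beta-gamma subunits open GIRK potassium channels and close presynaptic calcium channels, and alpha subunits inhibit adenylyl cyclases. KCTD8, KCTD12 and KCTD16 are cytosolic auxiliary subunits that bind the tail of GABBR2, and KCTD12 speeds the desensitization of the response, which KCTD8 and KCTD16 do not. PV+ interneurons carry GABA-B receptors on their terminals and dendrites.

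Totals lay between 44064161 and 49413273 counts per sample, so that 3 counts corresponded to 0.0607 to 0.0681 CPM (counts scaled to the library total), and the members had 218 to 15874 counts in a sample. Pvalb, which encodes parvalbumin, was at 820 to 1160 TPM (a level per transcript length) with CNO and at 300.1 to 1050.0 TPM with vehicle, but Slc17a7, a transporter of pyramidal cells, was also at 331 to 547 TPM. Fos, an early gene induced by activity, was at 32.2 to 69.5 CPM with CNO and 11.3 to 15.8 CPM with vehicle, with no overlap and a log2 fold change of 1.93 (SE 0.22, adjusted p = 0.0520 by edgeR's quasi-likelihood test with Benjamini-Hochberg adjustment). Rpl10a, the gene of the tagged ribosomal protein, was at 655 to 1295 TPM with CNO and 300.6 to 911 TPM with vehicle. Chrm3, the muscarinic receptor gene related to hM3Dq, was at 53.1 to 75.2 TPM with CNO and 34.2 to 64.4 TPM with vehicle. Pvalb, Rpl10a and Chrm3 were each lowest in vehicle sample 1. A marker index was taken as the average log2 CPM over 12 markers of PV+ interneurons, less the average over 12 markers of pyramidal cells. It was 1.504, 0.81, 1.34 and 1.90 in CNO samples 1 to 4 and -0.39, 0.92, 1.39 and 1.23 in vehicle samples 1 to 4. Vehicle sample 1 stood apart with the lowest index, and CNO sample 4 had the highest. For mRNA pooled from many cells, fewer cells of a type and less RNA per cell cannot be told apart.

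The start regions of 4 of the 5 genes were found in RefSeq (GRCm38.p6). The regions of Kctd8 and Kctd12 are shown because their motif counts differed: the first holds a cAMP response element, to which activity-regulated CREB can bind, and the second is rich in GC boxes. Both read 5′ to 3′ on the minus strand and cover the 250 bases before the RefSeq start, with Kctd8 at chr5:69341710-69341959 and Kctd12 at chr14:102982638-102982887. Capitals mark the cAMP response element TGACGTCA in Kctd8 and the shorter core TGACG in Kctd12, where it lies on the opposite strand and reads CGTCA.
Kctd8: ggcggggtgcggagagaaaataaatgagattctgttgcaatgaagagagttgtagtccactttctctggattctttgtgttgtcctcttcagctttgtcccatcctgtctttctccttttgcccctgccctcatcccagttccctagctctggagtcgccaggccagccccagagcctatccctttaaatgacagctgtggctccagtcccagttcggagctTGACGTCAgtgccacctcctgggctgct
Kctd12: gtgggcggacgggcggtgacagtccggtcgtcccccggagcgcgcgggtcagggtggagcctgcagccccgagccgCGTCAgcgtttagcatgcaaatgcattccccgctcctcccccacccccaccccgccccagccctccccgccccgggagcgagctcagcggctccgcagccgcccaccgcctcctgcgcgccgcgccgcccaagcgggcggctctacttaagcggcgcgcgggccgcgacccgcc

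The element in Kctd8 began 28 bases before the RefSeq start, which lies 30 bases upstream of the outermost GENCODE start. For Gabbr1 and Kctd12 both starts are the same, and for Gabbr2 the RefSeq start lies 159 bases inside the GENCODE gene. Motifs were searched on both strands, and TGACGTCA was found in 1.55% of 32851 RefSeq start regions of this length. It was not found in the regions of Gabbr1, Gabbr2 or Kctd12. The core TGACG, which the full element contains on both strands, was found in 17.8% of start regions. Neither receptor gene held it, and Kctd12 held it once, 174 bases before the start. The AP-1 site TGANTCA, present in 6.75% of start regions, was found in none of the 4. The GC box GGGCGG, present in 32.7% of start regions, was found 7 times in Kctd12, 2 times each in Gabbr1 and Gabbr2 and not in Kctd8. The GC content was 53.6% for Kctd8 against 66% for Gabbr1, 80.8% for Gabbr2 and 77.6% for Kctd12, with a median of 52.4% over all start regions. A match describes these letters and not binding, which was not measured.

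Both receptor subunits were among the more abundant mRNAs, and the KCTD genes were lower. Averaged over the 8 samples, Gabbr1 was at 142.9 ± 14.8 TPM (SD, n = 8), above 93.0% of the genes tested. Gabbr2 was at 114.7 ± 8.53 TPM (SD, n = 8), above 90.8% of them. In TPM, Gabbr1 exceeded Gabbr2 in 8 of 8 samples, by 1.05 to 1.40 times, although the ranges of the genes over samples overlapped.

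Of the partners, Kctd16 was at 29.1 ± 4.62 TPM and Kctd8 at 23.2 ± 4.60 TPM (SD, n = 8 each). In TPM these neighbours did not differ beyond their spread, since Kctd16 was the higher in 6 of 8 samples and the ratio ran from 0.663 to 2.35. Kctd12 followed at 3.12 ± 0.633 TPM (SD, n = 8), and Kctd8 exceeded it 4.92 to 10.2 times in TPM in 8 of 8 samples. The size of this gap depends on the unit, since Kctd12 averaged 6.13 CPM and Kctd8 28.8 CPM over the 8 samples. Kctd12b, a close relative of Kctd12 that also binds the receptor, was at 0.449 ± 0.0723 TPM (SD, n = 8). The order by TPM was thus Gabbr1, Gabbr2, the pair of Kctd16 and Kctd8, Kctd12 and Kctd12b. The gaps in TPM from Gabbr2 to Kctd16 and from Kctd8 to Kctd12 held in every sample without overlap. In CPM, which is not divided by transcript length, Gabbr2 was above Gabbr1, at 293 against 166 averaged over the 8 samples. Kctd8 was likewise above Kctd16, at 28.8 against 15.5 CPM. The order within these pairs thus depends on the transcript lengths used.

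None of the 5 genes changed with CNO by the thresholds used, which asked for a mean TPM above 1, a fold change above 1.5 and an adjusted p below 0.05. By the quasi-likelihood test this was so for all genes tested (0% called), with 716 genes (4.09%) at an unadjusted p under 0.05. The likelihood ratio test with robust dispersion called 12 genes (0.0686%) and DESeq2's Wald test 10 genes (0.0572%), none of them a member. At an unadjusted p under 0.05, 1 of the 5 members was higher with CNO, Kctd8, against 1.44% of all genes, and none was lower, against 2.65%. In none of the 5 did the CNO samples lie wholly apart from the vehicle samples, against 2.42% of all genes tested.

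**Figure D1:**
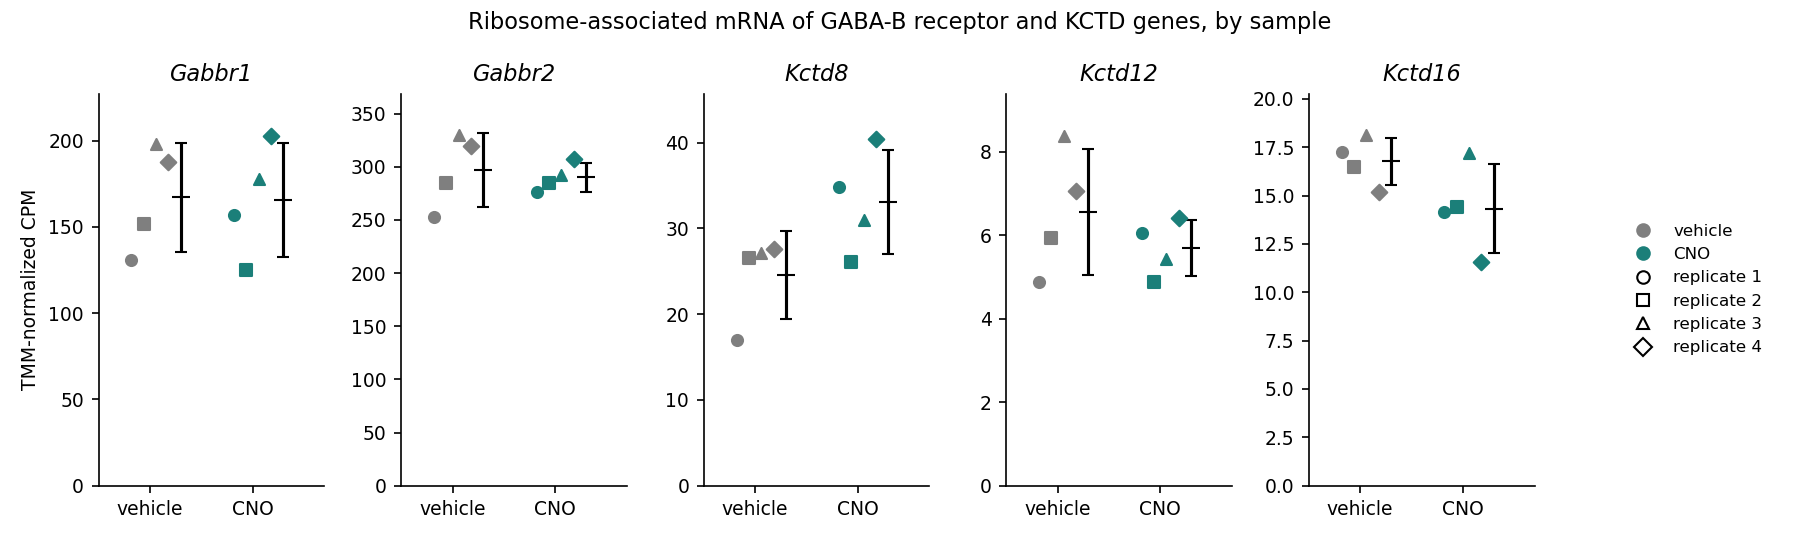
TMM-normalized CPM of the 5 genes (vertical axes, linear, each from 0) in the vehicle samples (grey) and CNO samples (teal), with marker shape giving the replicate number and bars the mean ± SD of 4 samples. The groups overlap for each gene, and Kctd8 shows 3 CNO samples above the highest vehicle sample, at 27.6 CPM.

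Gabbr1 (ENSMUSG00000024462, chr17:37045966-37075067 in GRCm38, plus strand) encodes the GABA-binding subunit, and its 11 annotated transcripts include isoforms that the gene-level counts do not resolve. It was measured at 157, 125, 177 and 203 CPM in CNO samples 1 to 4 and at 131, 151, 198 and 188 CPM in vehicle samples 1 to 4, after TMM normalization. The groups overlapped almost fully. In both groups samples 1 and 2, none above 157 CPM, lay below samples 3 and 4, none under 177 CPM, and the labels name no batch for these numbers. The log2 fold change was -0.01 (SE 0.17, 95% interval -0.39 to 0.36, adjusted p = 0.988 by edgeR's quasi-likelihood test with Benjamini-Hochberg adjustment). Its interval leaves room for changes between 0.763-fold and 1.29-fold, and the sign turned when CNO sample 1 or 2 or vehicle sample 3 or 4 was left out (-0.13 to 0.10 over all 8 omissions). With the marker index in the model it was -0.24 (SE 0.10, unadjusted p = 0.0357, adjusted p = 1.00, edgeR's quasi-likelihood test), and it was -0.23 (unadjusted p = 0.134) without the samples of lowest and highest index. An exact two-sided permutation test of the CPM gave p = 0.914, where 0.0286 is the smallest value that 4 samples against 4 allow.

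Gabbr2 (ENSMUSG00000039809, chr4:46662305-46991873, minus strand) encodes the subunit that couples to G proteins and holds the KCTD binding site. Its CPM was 276, 285, 292 and 308 in CNO samples 1 to 4 and 253, 284, 330 and 319 in vehicle samples 1 to 4. The CNO samples lay inside the range of the vehicle samples. The log2 fold change was -0.03 (SE 0.11, 95% interval -0.28 to 0.21, adjusted p = 0.945 by edgeR's quasi-likelihood test with Benjamini-Hochberg adjustment), and it ran from -0.11 to 0.02 with 1 sample left out, the sign turning without vehicle sample 3 or 4. With the marker index in the model it was -0.13 (unadjusted p = 0.0944, adjusted p = 1.00, edgeR's quasi-likelihood test). As for Gabbr1, samples 1 and 2 of both groups lay below samples 3 and 4, with 285 CPM as the highest of the former and 292 CPM as the lowest of the latter. Gabbr2 varied little within the CNO group, with a coefficient of variation of 4.64% against 11.8% with vehicle.

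The ratio of the subunits was also close in both groups. Gabbr1 was 1.05 to 1.40 times Gabbr2 in TPM with CNO and 1.21 to 1.26 times with vehicle. The mean log2 ratio differed by 0.03 (exact two-sided permutation test, 4 against 4, p = 0.857, also after adjustment over the 3 ratios tested). The vehicle samples were the closer together, with an SD of 0.03 on the log2 scale against 0.19 with CNO, and this difference in spread was not tested.

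Kctd8 (ENSMUSG00000037653, chr5:69109285-69341679, minus strand), a non-desensitizing partner, had the largest difference of the 5 genes. Its CPM was 34.9, 26.1, 31.01 and 40.4 in CNO samples 1 to 4 and 16.9, 26.5, 27.1 and 27.6 in vehicle samples 1 to 4. CNO samples 1, 3 and 4 exceeded the highest vehicle sample, CNO sample 2 lay among the vehicle samples, and vehicle sample 1 lay far below the other three. The log2 fold change was 0.43 (SE 0.17, 95% interval 0.05 to 0.81), or 1.35-fold. Its unadjusted p was 0.0311 and its adjusted p 0.817 after Benjamini-Hochberg adjustment (edgeR's quasi-likelihood test). An exact two-sided permutation test gave p = 0.114 for CPM and 0.0571 for TPM.

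The difference in Kctd8 moved with the samples at the ends of the marker index. The log2 fold change was 0.28 without vehicle sample 1, 0.32 without CNO sample 4 and 0.53 without CNO sample 2. Without both end samples, a setting chosen after the data were seen, it was 0.17 (unadjusted p = 0.135, adjusted p = 1.00, edgeR's quasi-likelihood test). With the index as a term in the model it was also 0.17 (unadjusted p = 0.0634, adjusted p = 1.00).

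**Figure D2:**
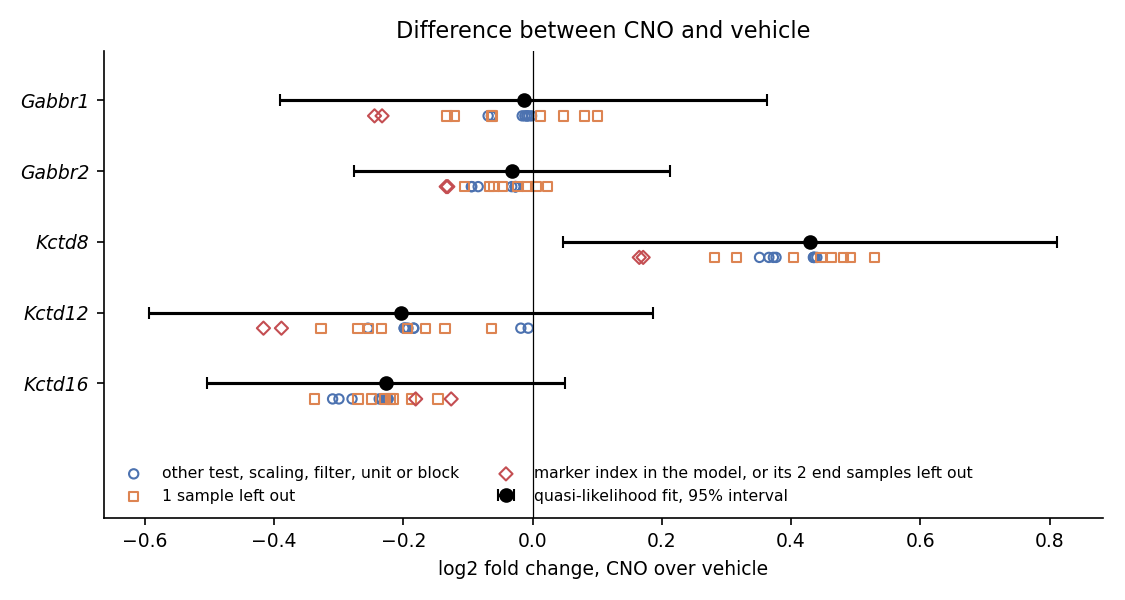
Log2 fold change of CNO over vehicle (horizontal axis) for the 5 genes, with black points and bars for the quasi-likelihood estimate and its 95% interval and open symbols for other settings. The interval of Kctd8 runs from 0.05 to 0.81, those of the other 4 genes span 0, and the estimates of Kctd8 with the marker index in the model or without its end samples lie at 0.17.

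Kctd12 (ENSMUSG00000098557, chr14:102976581-102982637, minus strand), the desensitizing partner, was low in every sample. Its CPM was 6.06, 4.88, 5.44 and 6.42 in CNO samples 1 to 4 and 4.87, 5.94, 8.37 and 7.06 in vehicle samples 1 to 4. Vehicle samples 3 and 4 exceeded every CNO sample, while vehicle sample 1 was the lowest of the 8. The log2 fold change was -0.20 (SE 0.18, 95% interval -0.59 to 0.19, adjusted p = 0.817 by edgeR's quasi-likelihood test with Benjamini-Hochberg adjustment). With the marker index in the model it was -0.42 (unadjusted p = 0.00791, adjusted p = 1.00, edgeR's quasi-likelihood test).

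Counts and TPM gave different pictures for Kctd12. In TPM it was at 4.41, 2.43, 2.37 and 3.37 in CNO samples 1 to 4 and at 3.03, 3.06, 3.02 and 3.24 in vehicle samples 1 to 4, so CNO sample 1 was the highest and CNO sample 3 the lowest. The log2(TPM + 1) difference by limma was -0.01. The counts behind 1 TPM varied 2.05-fold between samples for Kctd12, more than for 99.1% of the 15173 genes with a mean TPM above 1, where the median was 1.07-fold, and 1.02-fold to 1.13-fold for the other members. Of the annotated exonic bases of Kctd12 in GENCODE, 62.8% are shared with Gm26778, a lincRNA gene on the other strand that itself had 19 to 75 counts, and the 2 annotated Kctd12 transcripts are 539 and 6057 bases long. The library kit does not mark strand, so reads from the shared bases cannot be assigned by strand, and the part of either fact in the difference between units was not tested.

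Kctd16 (ENSMUSG00000051401, chr18:40256962-40531630, plus strand), the other non-desensitizing partner, lay on the opposite side of 0 from Kctd8. Its CPM was 14.1, 14.4, 17.2 and 11.6 in CNO samples 1 to 4 and 17.3, 16.5, 18.1 and 15.2 in vehicle samples 1 to 4. CNO samples 1, 2 and 4 were below the lowest vehicle sample, and CNO sample 3 was among the vehicle samples. The log2 fold change was -0.23 (SE 0.13, 95% interval -0.50 to 0.05, unadjusted p = 0.0985, adjusted p = 0.817 by edgeR's quasi-likelihood test with Benjamini-Hochberg adjustment). It was negative with each sample left out, from -0.34 to -0.15. Of its exonic bases, 10.4% are shared with an antisense gene that is not in the count table.

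The balance between the non-desensitizing partners was compared within each sample, where scaling between libraries plays no part. Kctd8 stood at 1.07, 0.793, 0.786 and 1.51 times the TPM of Kctd16 in CNO samples 1 to 4 and at 0.426, 0.704, 0.654 and 0.787 times in vehicle samples 1 to 4. CNO samples 1, 2 and 4 exceeded the highest vehicle sample, CNO sample 2 by little, and Kctd8 passed Kctd16 in CNO samples 1 and 4. The mean ratio was 1.60-fold higher with CNO, a log2 difference of 0.68 (exact two-sided permutation test, 4 against 4, p = 0.0571, adjusted over the 3 ratios 0.171). The log2 difference was 0.49 without vehicle sample 1, 0.48 without CNO sample 4 and 0.30 without both.

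For Kctd12 over Kctd16 the log2 difference was 0.29 in TPM (exact two-sided permutation test, p = 0.4, adjusted 0.6) and 0.06 in rounded counts (exact permutation p = 0.8286), and in TPM it ran from 0.11 without CNO sample 1 to 0.50 without CNO sample 3. Kctd8 made up 42.2% to 56.4% of the summed TPM of the 3 KCTD genes with CNO and 28.2% to 41.5% with vehicle. The groups came close, at 42.2% in CNO sample 3 and 41.5% in vehicle sample 4, and the difference in shares was not tested. The shares include the TPM of Kctd12, for which counts and TPM differed. Without Kctd12, Kctd8 over Kctd16 overlapped, at 0.786 in CNO sample 3 and 0.787 in vehicle sample 4. The summed TPM of the 3 genes stayed between 52.5 and 57.7 in all 8 samples, or 43.6% to 54.7% of the TPM of Gabbr2. Both ranges hold for TPM and depend on the transcript lengths used. In CPM, Kctd8 ran from 16.9 to 40.4 and Kctd16 from 11.6 to 18.1 over the samples, and no sum was computed.

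**Figure D3:**
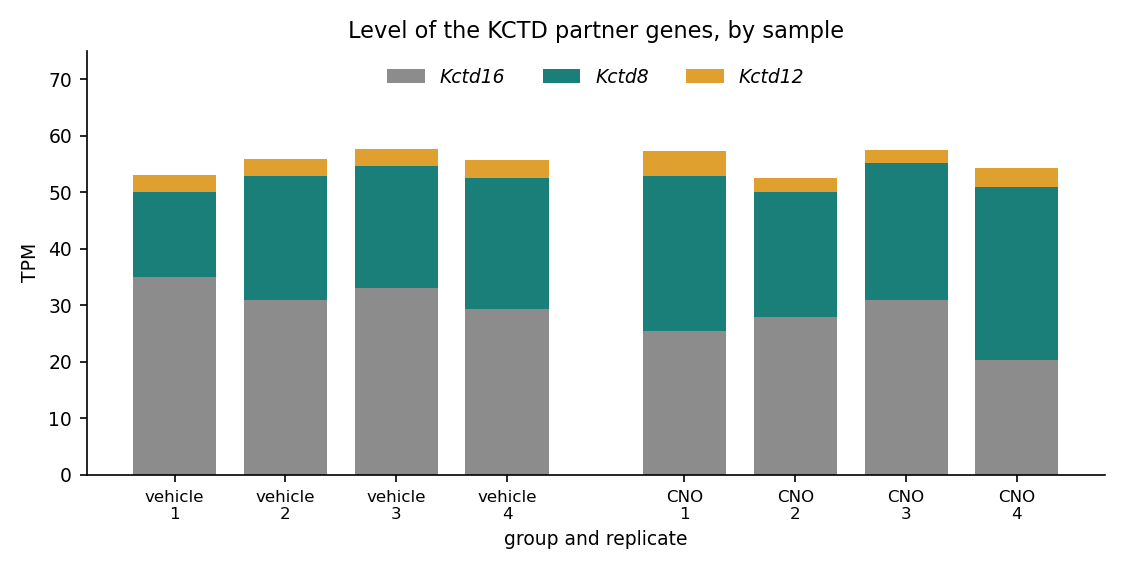
TPM of Kctd16 (grey), Kctd8 (teal) and Kctd12 (orange), stacked on a linear axis from 0, in each vehicle and CNO sample. The stacks end between 52.5 and 57.7 TPM, and the teal share ranges from 28.2% in vehicle sample 1 to 56.4% in CNO sample 4.

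The level of each member was set against the marker index over the 8 samples. The log2 CPM of Kctd8 followed the index most closely (Pearson r = 0.960, exact permutation p = 0.000198, adjusted over the 5 members 0.000992; Spearman rho = 0.929, exact permutation p = 0.00223). Gabbr1 also rose with it (r = 0.759, exact permutation p = 0.0137, adjusted 0.0342; rho = 0.810, exact permutation p = 0.0218). How many of all genes tested follow the index as closely was not computed, so these values do not mark a trait particular to the members. The permutations also exchanged samples between CNO and vehicle. Without vehicle sample 1 and CNO sample 4, r was 0.762 for Kctd8 (exact permutation p = 0.0778) and 0.710 for Gabbr1 (exact permutation p = 0.124), so neither relation passed on the 6 samples left. In log2(TPM + 1) over all 8 samples the relation of Gabbr1 did not pass either (r = 0.606, exact permutation p = 0.0890, adjusted 0.148).

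For the other 3 members no relation passed the adjusted threshold. The values were r = 0.714 for Gabbr2 (exact permutation p = 0.0457, adjusted 0.0762; rho = 0.452, p = 0.267) and 0.265 without the end samples. For Kctd12 they were r = 0.591 (exact permutation p = 0.126, adjusted 0.158; rho = 0.690, p = 0.0694) and 0.531 without them. Kctd16 had r = -0.505 (exact permutation p = 0.200, adjusted 0.200; rho = -0.429, p = 0.299) and 0.19 without them. With 4 samples a group, no value within groups was computed.

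The summed TPM of the PV+ interneuron markers was 2830 to 4357 with CNO and 1379 to 3526 with vehicle. All 12 of 12 markers had positive log2 fold changes, against 8810 of 17495 genes, but as markers of the same cells they are not independent. At an unadjusted p under 0.05, 1 of 12 was higher, against 1.44% of all genes. Their average log2 CPM was 5.79 in vehicle sample 1, 7.01 to 7.28 in the other vehicle samples and 6.81 to 7.65 with CNO. The summed TPM of the pyramidal cell markers was 1452 to 1988 with CNO and 1639 to 2327 with vehicle. Negative log2 fold changes were found for 11 of 12 of these markers, none at an unadjusted p under 0.05. Other interneuron markers, Vip among them, summed to 605 to 701 TPM with CNO and 695 to 812 TPM with vehicle, with 5 of 8 at negative log2 fold changes and 2 of 8 lower at an unadjusted p under 0.05, against 2.65% of all genes. Oligodendrocyte markers (563 to 1020.1 TPM with CNO, 777 to 999 TPM with vehicle) and microglia markers (41.95 to 66.6 and 52.8 to 79.9 TPM) were negative in 6 of 6 each, with 0 and 1 at that level. The 4 endothelial markers (21.6 to 62.2 and 32.4 to 48.2 TPM) were positive in 4 of 4 and the 7 astrocyte markers (481 to 555 and 493 to 613 TPM) in 3 of 7, with none at an unadjusted p under 0.05. No marker of these lists was at 0 in all samples. The part of cell composition in the values of Kctd8 and Kctd16 was not tested.

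**Figure D4:**
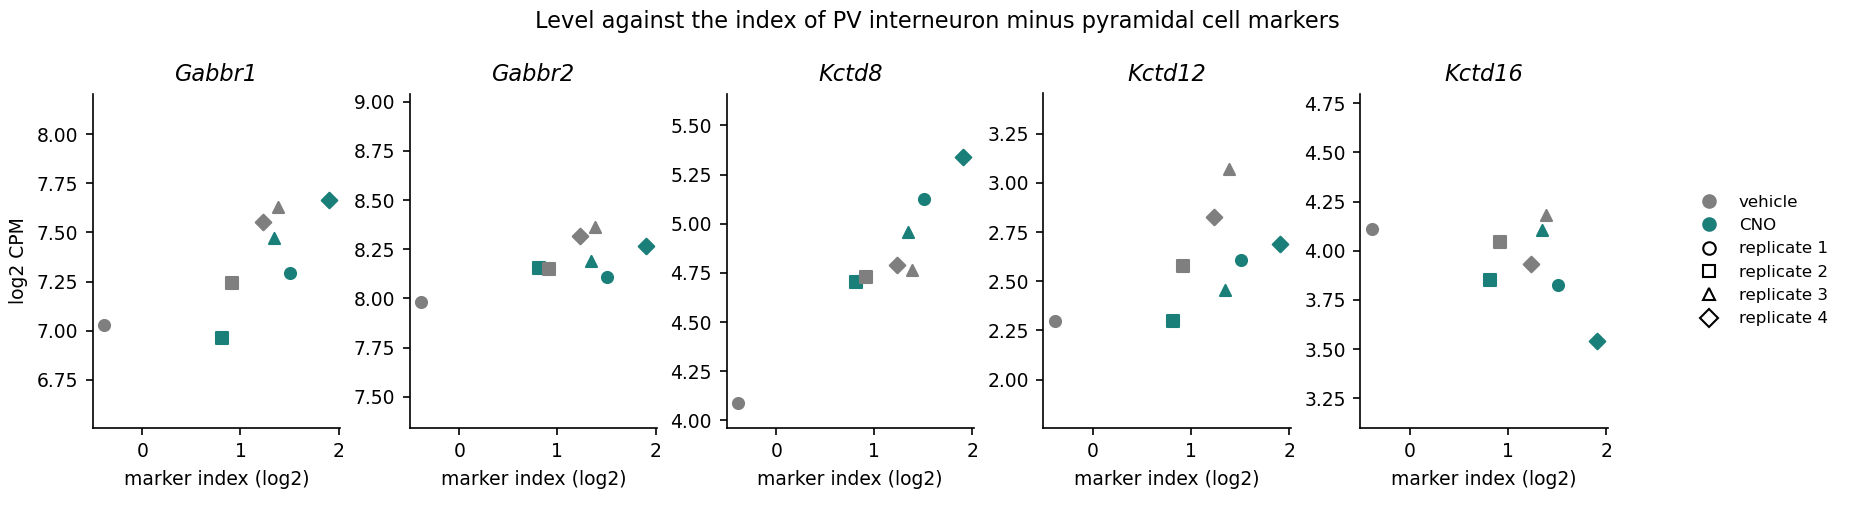
Log2 CPM of the 5 genes (vertical axes, each spanning the same log2 distance) against the marker index of each sample (horizontal axis), vehicle in grey and CNO in teal, with marker shape giving the replicate number. Kctd8 runs along the index with r = 0.960, and vehicle sample 1 lies alone at the left at -0.39.

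The genes most alike in pattern to each member were taken by Pearson r of log2 CPM over the 8 samples among 15172 genes, and give a description without a test. For Gabbr1 they were Nomo1 (r = 0.990) and B4galt6 (0.981), and for Gabbr2 Galnt9 (0.982) and Galns (0.955). Kctd8 was closest to Lrrc61 (r = 0.997) and Asb2 (0.996), with log2 fold changes of 0.42 and 0.69. Kctd12 was closest to Caln1 (r = 0.949) and Zfp644 (0.946). Kctd16 was closest to Vip (r = 0.977), the peptide gene that marks another class of interneurons, and to Suclg2 (0.959), with log2 fold changes of -0.18 and -0.23.

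Among 43 further genes of the GABA-B signalling chain, all of them tested, none was called and none reached an unadjusted p under 0.05, against 4.09% of all genes. Their log2 fold changes were positive for 16 and negative for 27, with a median of -0.05 against 0.00 over all genes. Of 13 auxiliary, ligand and trafficking genes, 7 were positive and 6 negative. The highest was Prkaa1, a subunit of AMP-activated kinase, at 0.30 (SE 0.18), and the lowest Jakmip1, which links the receptor to microtubules, at -0.24 (SE 0.12). Kctd12b was at -0.22 (SE 0.22).

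The GIRK channel genes, effectors of the receptor, gave 1 positive and 3 negative values. Kcnj3 was highest at 0.12 (SE 0.13) and Kcnj5 lowest of the chain at -0.46 (SE 0.58), with a mean level of 0.276 TPM. Kcnj9 was the most abundant of them at 159.7 TPM, with a log2 fold change of -0.02 (SE 0.09). Of the presynaptic calcium channel genes, Cacna1a was at -0.05 (SE 0.10) and Cacna1b at -0.17 (SE 0.10).

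The genes of 5 G protein alpha subunits lay between Gnaz at -0.09 and Gnai1 at 0.05 on the log2 scale. The 8 beta and gamma subunit genes lay between Gnb4 at -0.22 and Gng3 at 0.23. Of the 6 adenylyl cyclase genes 5 were negative, from Adcy2 at -0.33 (SE 0.15) to Adcy1 at 0.18. Of the 5 genes in the RGS group, 4 encode RGS proteins, which speed the end of G protein signals. All 4 were negative, with Rgs6 lowest at -0.29 (SE 0.18). The positive one, Rgs7bp at 0.14 (SE 0.14), encodes a protein that binds RGS proteins.

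In 2 of the 43, Rgs4 and Rgs7, every CNO sample was below every vehicle sample in CPM, against 2.42% of all genes without overlap. Rgs4 was at 301 ± 12.8 CPM with CNO and 349 ± 44.8 CPM with vehicle (SD, n = 4 each), a log2 fold change of -0.21 (SE 0.11). Its adjusted p was 0.817 (edgeR's quasi-likelihood test, Benjamini-Hochberg). Rgs7 was at 89.4 ± 1.27 and 97.0 ± 3.59 CPM (SD, n = 4 each), a log2 fold change of -0.12 (SE 0.08) with the same adjusted p.

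**Figure D5:**
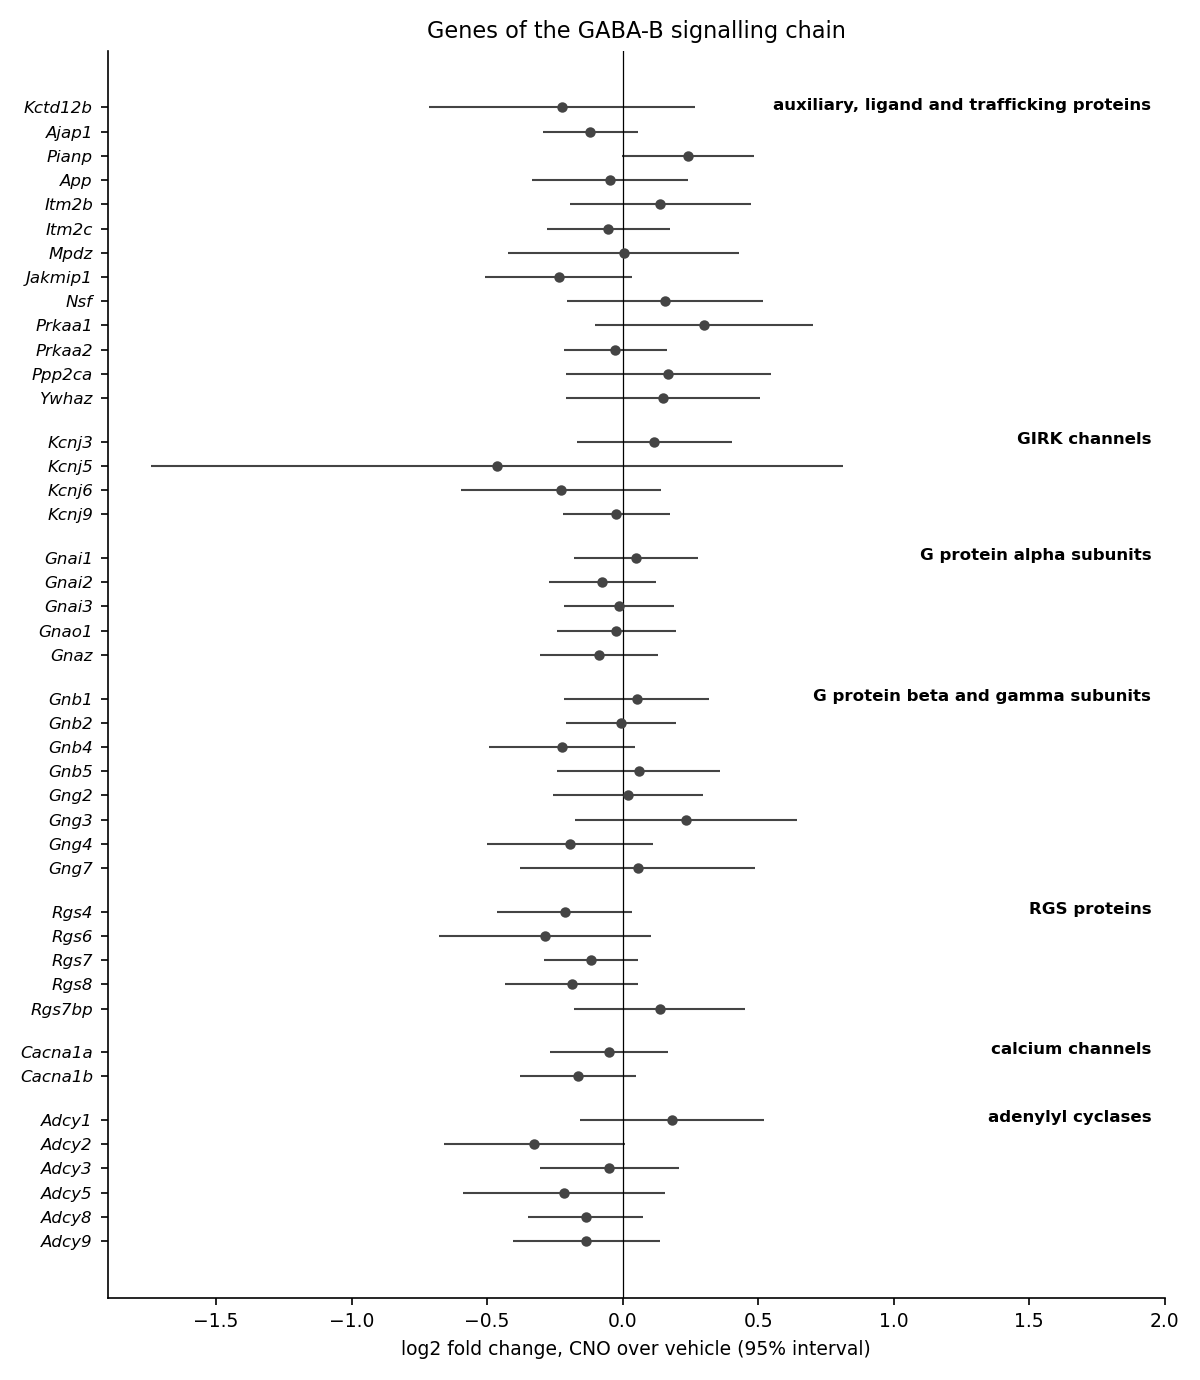
Log2 fold change of CNO over vehicle (horizontal axis) with its 95% interval for 43 genes of the GABA-B signalling chain, grouped by role. All 43 intervals reach across 0, from Kcnj5 at -0.46 to Prkaa1 at 0.30.

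Related gene families were counted in the same way. Of 18 tested genes among 19 other KCTD genes, 10 were positive and 8 negative, between Kctd11 at -0.33 and Kctd9 at 0.25, and none reached an unadjusted p under 0.05, against 4.09% of all genes. Of 12 tested genes among 16 subunits of the ionotropic GABA-A receptor, 5 were positive and 7 negative, with Gabrb1 lowest at -0.29 (SE 0.12). Gabrb1 alone of them had an unadjusted p under 0.05 (0.0371, adjusted 0.817, edgeR's quasi-likelihood test), against 2.65% of all genes lower at that level.

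The metabotropic glutamate receptors, relatives of GABBR1 and GABBR2 in class C, lay on one side of 0. All 7 tested of 8 genes had negative log2 fold changes, against 8685 of all 17495 genes tested. The median of the 7 was -0.23, and Grm8 was lowest at -0.47 (SE 0.17). Grm3 at -0.23 (SE 0.09), Grm4 at -0.31 (SE 0.10) and Grm8 had unadjusted p-values of 0.0311, 0.0127 and 0.0194, against 2.65% of all genes lower at that level, and an adjusted p of 0.817 each (edgeR's quasi-likelihood test). CNO and vehicle lay wholly apart for 2 of the 7, Grm3 and Grm4, against 2.42% of all genes tested.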

How the data were processed

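Ribosome-associated mRNA of PV+ interneurons was sequenced in 4 CNO and 4 vehicle samples. Per the methods, reads were trimmed (Trim Galore), aligned to GRCm38 (STAR) and quantified by Salmon, and the authors deposited estimated counts per gene without normalization. The authors also deposited TPM, which divide by transcript length and total. Groups and replicate numbers came from the sample labels. Estimated counts were rounded and fitted by edgeR 4.0.16 under R 4.3.3 (TMM, quasi-likelihood test, Benjamini-Hochberg over all genes), leaving out genes with under 10 counts in at least 4 samples. Log2 CPM of samples used a prior count of 2. The study names edgeR with robust dispersion and, in a figure legend, a Wald test, so the likelihood ratio test and DESeq2 1.42.0 were alternatives, with limma 3.58.1 on log2(TPM + 1) and log2(TPM + 0.1), other scaling, no filter, blocks, the marker index as a term and omission of each sample. Named genes were the members, per list those at an unadjusted p under 0.05 and the highest and lowest, the 2 genes most alike each member, and Fos, Pvalb, Slc17a7, Rpl10a and Chrm3; some results under this rule are not reported here. Other genes of the signalling chain (the lowest and highest of each role, Kctd12b, Kcnj9, Rgs4 and Rgs7) were named after their values were seen, as was Gm26778. Members and lists were chosen with earlier results of these data known. Gene positions came from GENCODE M21 on GRCm38, which may differ from the annotation the authors used. The quasi-likelihood fit was run on simulated counts, at an adjusted p under 0.05. It recovered 77% of 100 genes with a log2 change of 1 and 98.9% of 94 genes with 2. It also called 8 unchanged genes. Smaller changes, such as those of the members, and differences between samples shared by many genes were not simulated. Nothing in the labels says that samples came from separate litters or days, so p-values measure the spread between these pools.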

Additional observations from a re-analysis of the deposited data

Results flagged for a closer look

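Vehicle sample 1 had 16.9 CPM of Kctd8, far below the other 3 vehicle samples, which lay between 26.5 and 27.6 CPM. Its gap to the nearest sample was 0.893 of the whole range of the group, above the 95% critical value of Dixon's test for 4 samples. This was 1 of 18 groups of 4 tested (9 measures in 2 groups), of which chance marks about 1 in 20, or 0.9 here. The same sample had the lowest marker index, -0.39.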

How the results depend on the processing

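No member was called in any setting, and 151 of 175 alternatives over 15 results kept their direction and their side of the threshold. The number of genes called, 0, became 12 by the likelihood ratio test, 10 by DESeq2, 4 without the filter and 3 with a block of samples 1 and 2 against 3 and 4, and 0 to 2 with 1 sample left out. The number of members at an unadjusted p under 0.05 was 1, beside 716 of all 17495 genes. By limma it became 2 on log2(TPM + 1), beside 998 genes, and 0 on log2(TPM + 0.1), beside 991. With the marker index in the model it was 2 (Gabbr1 and Kctd12, while Kctd8 was no longer among them), beside 557 genes. With 1 sample left out it was 0 to 2. It was 0 without CNO sample 1 (496 of 17677 genes) or CNO sample 4 (330 of 17738) and 2 without CNO sample 3 (566 of 17709). With 1 sample left out, the log2 fold change ranged from -0.13 to 0.10 for Gabbr1, -0.105 to 0.0231 for Gabbr2, 0.28 to 0.53 for Kctd8, -0.33 to -0.06 for Kctd12 and -0.34 to -0.15 for Kctd16. The log2 difference in the Gabbr1 to Gabbr2 ratio ranged from -0.0218 to 0.118 with 1 sample left out and was -0.0314 without the samples of lowest and highest marker index. The correlation of Gabbr1 with the index was 0.61 in log2(TPM + 1) and 0.71 without those samples, that of Kctd8 0.76 and that of Kctd16 0.19 without them. The causes were not tested.

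Same-numbered samples had correlations over genes, of deviations from the group means, of 0.03, -0.03, 0.16 and 0.24. CNO sample 2 correlated best with vehicle sample 1 (0.43). Low values cannot exclude a pairing by design, because the deviations also hold every other difference between samples. All 8 correlations between samples 1 and 2 of one group and samples 3 and 4 of the other were negative. Within these sets 7 of 8 were positive. The deviations in a group sum to 0 for each gene, so these counts are tied to each other. With the replicate number as a block, 0 genes were called and 765 had an unadjusted p under 0.05, and Kctd8 was at 0.44 (unadjusted p = 0.0362, adjusted p = 0.799, edgeR's quasi-likelihood test). With samples 1 and 2 against 3 and 4 as the block, 1193 genes had an unadjusted p under 0.05, against 716 without a block. The lowest count of a member in a sample was 218, for Kctd12, and the shares of counting error and of spread between pools in the intervals were not tested.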
